A study of Homo sapiens with 12 samples.

Results

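The clustered histone genes encode the linker histone H1 and the core histones H2A, H2B, H3 and H4, and lie together in 3 clusters and 1 single gene. Members were chosen by gene symbol, taking every row of the count table whose older symbol starts with HIST1H, HIST2H, HIST3H or HIST4H and leaving out 14 pseudogene names. The rule took 75 of 57773 genes, and 35 of them had at least 10 counts in 3 or more of 12 libraries and are described here. By type these were 2 of 6 H1 genes, 8 of 17 H2A genes, 14 of 23 H2B genes, 4 of 14 H3 genes and 7 of 15 H4 genes. Of the other 40 members, 20 had no count in any library, and no library gave any of the 40 more than 17 counts. Of the 35 described members 25 reached 10 counts in all 12 libraries and 10 in only some of them. Of the 35, 4, HIST2H2BA, HIST2H2BB, HIST2H2BC and HIST2H2BD, are pseudogenes in the current RefSeq annotation although their older names do not show it.

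RNA was sequenced from MDA-MB-231, an established human cell line of triple-negative breast cancer, grown in DMEM with 10% serum. All 12 libraries share this line and medium, and they fall into 4 groups of 3. Libraries 1 to 3 were untreated, libraries 4 to 6 had TGFβ, libraries 7 to 9 had alisertib, and libraries 10 to 12 had both (the combined group), each treatment for 48 h. Doses are not given in the sources used here. TGFβ is a secreted growth factor that slows the growth of many epithelial cells, and alisertib inhibits the mitotic kinase Aurora A. The labels do not state whether the 3 libraries per group are separate cultures. The p-values therefore cover only the spread seen among them, and that may be technical.

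Replicating cells make most of their histones from these clustered genes, which lack introns in their main form and are transcribed in S phase through NPAT at the histone locus body. Their main mRNAs end in a short hairpin in place of a poly(A) tail. SLBP binds that hairpin and governs processing, translation and decay, so the mRNAs disappear when DNA synthesis stops. Several of the genes also give longer, polyadenylated transcripts from sites past the hairpin, and these forms are known from cells that leave the cycle or differentiate. The standard protocol of the library kit used, TruSeq RNA v2, selects RNA with poly(A) tails. Whether it was followed is not given in the sources used here, and hairpin-ended and polyadenylated forms were not counted apart. The kit does not mark strand, so genes that overlap cannot be told apart, and near-identical histone copies make the count of any single member uncertain. The locus of 8 of the 35 members overlaps another row of the table.

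The hairpin is the element that sets these transcripts apart from other mRNAs, and it was searched for in the GENCODE release 29 transcripts as a run of 16 bases. The run starts with GG and ends with CC, its 6-base arms pair fully, and its 4-base loop has T at the first and the third base. It was found in 14 of the 34 described members that have a transcript model, and in 71 of 19614 other protein-coding genes (0.362%). Of the 20 members without it, 11 have a longest model that ends within 3 bases of the coding sequence, so that the stretch where a hairpin would lie is not in the model. The 14 members carry 4 forms of the hairpin. They are shown for 6 members in the sense direction as DNA, with 5 bases on either side, and capitals mark the hairpin. HIST1H2AC and HIST2H2BE have the form shared by 7 members, HIST1H2BC and HIST1H2BD the form of 2 members, and HIST1H4H the form of 4 members that are all H4 genes. HIST1H4I alone has the fourth.
HIST1H2AC: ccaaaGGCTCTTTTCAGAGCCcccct
HIST2H2BE: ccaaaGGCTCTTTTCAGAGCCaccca
HIST1H2BC: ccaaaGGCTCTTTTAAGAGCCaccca
HIST1H2BD: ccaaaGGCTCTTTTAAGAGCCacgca
HIST1H4H: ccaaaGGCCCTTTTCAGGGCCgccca
HIST1H4I: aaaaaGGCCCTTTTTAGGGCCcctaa
In 9 of the 14 at least 1 model runs on for 100 bases or more past the hairpin. In the other 5 every model that holds the hairpin ends closer to it, and models without it were not measured. The longest model of HIST2H2BE goes on for 1729 bases past the hairpin, and the models of HIST1H2AC that hold it go on for 1114 to 1128 bases. HIST1H2BD has 2 models, and the 1 that holds the hairpin goes on for 39 bases past it.

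Promoters are printed because H2A and H2B genes often lie head to head and share one, so that their levels can be set against a common sequence. RefSeq (GRCh38.p14) gave a 300-base promoter, from 250 bases before the start to 50 after it, for 28 described members. TATAAA, the TATA box, was present on either strand in 21 of the 28 (75%) and in 11.95% of 27305 RefSeq promoters. CCAAT, the CCAAT box, was present in 23 (82.14%) against 35.7%, in all H1, H2A, H2B and H3 promoters but in 1 of 6 H4 promoters. ATTTGCAT is the octamer written in the orientation known from H2B promoters, but it too was counted on either strand. It was present in 11 (39.29%) against 1.802%. These 11 were 4 of 7 H2A and 7 of 10 H2B promoters. Overlap between motifs was allowed, and a match is a string of letters, not a measured binding site. The 250 bases before the start are given below in the direction of transcription, with capitals for these 3 motifs on either strand. HIST1H2AC (chr6:26123922-26124171, plus strand) shares its promoter with HIST1H2BC, with 255 of 300 bases in common. HIST1H2BJ (chr6:27132796-27133045, minus strand) shares 253 bases with HIST1H2AG. HIST1H1C (chr6:26056471-26056720, minus strand) has 1 CCAAT and neither other motif, and HIST1H4H (chr6:26285535-26285784, minus strand) has none of the 3.
HIST1H2AC: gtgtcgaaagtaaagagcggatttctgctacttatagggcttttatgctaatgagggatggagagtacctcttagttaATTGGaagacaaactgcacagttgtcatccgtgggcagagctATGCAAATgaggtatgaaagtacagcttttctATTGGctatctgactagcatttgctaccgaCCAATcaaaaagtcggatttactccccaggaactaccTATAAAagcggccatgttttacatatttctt
HIST1H2BJ: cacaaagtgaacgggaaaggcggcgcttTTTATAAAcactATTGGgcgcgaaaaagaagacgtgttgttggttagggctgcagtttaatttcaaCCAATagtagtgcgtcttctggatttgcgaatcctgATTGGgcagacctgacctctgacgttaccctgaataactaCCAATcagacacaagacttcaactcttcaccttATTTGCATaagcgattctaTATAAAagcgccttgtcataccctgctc
HIST1H1C: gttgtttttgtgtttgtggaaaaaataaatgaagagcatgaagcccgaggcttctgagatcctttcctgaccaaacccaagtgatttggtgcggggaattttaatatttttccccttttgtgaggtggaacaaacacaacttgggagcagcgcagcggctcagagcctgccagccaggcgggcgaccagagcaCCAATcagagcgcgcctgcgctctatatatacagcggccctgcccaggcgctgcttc
HIST1H4H: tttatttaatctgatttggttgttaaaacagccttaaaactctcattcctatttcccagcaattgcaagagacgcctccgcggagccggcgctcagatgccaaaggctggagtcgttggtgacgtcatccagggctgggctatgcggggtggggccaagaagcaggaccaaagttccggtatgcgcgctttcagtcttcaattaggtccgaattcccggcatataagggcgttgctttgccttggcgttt
In HIST1H2AC the last TATAAA begins 31 bases before the start and the octamer, there as ATGCAAAT, begins 130 bases before it. In HIST1H2BJ these distances are 28 and 47 bases.

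Library totals ran from 93701658 to 120619368 counts, and the 35 members took 0.007445% to 0.0128% of them. A count of 0 allows up to 3 counts, which is 0.0249 to 0.0320 CPM (counts scaled to a common library size), for counting error only. The line's markers VIM, CD44, CAV1, AXL and ZEB1 were at 62.3 CPM or more in every library, and SPARC, also listed for it, was at 0.205 to 1.08. Among the 8 luminal breast markers listed KRT8 was at 223 to 332 CPM, EPCAM at 12.7 to 19.7, GATA3 at 3.35 to 7.58, ERBB3 at 2.76 to 10.2 and CDH1 at 1.55 to 5.88, while ESR1, PGR and FOXA1 stayed at or under 0.0581. Of the endothelial markers KDR was at 0.937 to 3.19 CPM, and CDH5 and VWF at or under 0.0915. Of the leukocyte markers CD14 was at 0.639 to 2.90 CPM, and PTPRC, ITGAM and CD3E at or under 0.227. Of the 5 luminal markers tested 4 were called lower with TGFβ, as were KDR and CD14, and none of these was called with alisertib alone. The part of these markers in the results below was not tested. Within each group 1 library, namely 1, 6, 9 and 10, stands apart with a shift that follows GC content. Over the 11 members with a mean of at least 1 CPM, the median deviation of a library from its group was between -0.04 and 0.07 on the log2 scale in all 12 libraries. Single members deviated more, from -0.37 to 0.26 in library 1 and from -0.21 to 0.30 in library 6. In library 3, which does not stand apart, they deviated from -0.32 to 0.19. A median near 0 thus does not show that single members were free of the shift.

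Per length the members spanned a wide range of levels. In the authors' RPKM, averaged over the 12 libraries, HIST1H2BK was highest at 40.5 (32.1 to 47.8), followed by the H1 gene HIST1H1C at 26.7 (15.9 to 34.3). HIST1H2BD came next at 10.5 (6.63 to 13.1) and HIST1H2AC at 9.14 (6.17 to 12.5). Pooled over all groups, the ranges of HIST1H2BK and HIST1H1C overlapped, as did those of HIST1H2BD and HIST1H2AC, with a gap between the pairs. Within each of the 12 libraries HIST1H2BK lay above HIST1H1C and HIST1H2BD above HIST1H2AC. HIST1H2BJ, HIST1H4H, HIST1H2BC and HIST1H4C lay between 2.22 and 1.16, and the other 27 members were under 1 RPKM. The first 4 held 81.9% of the members' summed CPM. The highest H3 gene was HIST1H3C at 0.602 RPKM. No H3 gene was among the 8 members at 1 RPKM or more.

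The length over which reads were counted left a gap between members with and without a long stretch beyond the coding sequence. In 14 members it exceeded the coding sequence by 434 to 3767 bases and in 17 by 45 to 141, while 4 members have no coding sequence in the annotation. The median level was 0.647 RPKM in the 14 and 0.480 in the 17, with 6 and 2 members at 1 RPKM or more. The levels overlapped, running from 0.0524 to 40.5 RPKM in the 14 and from 0.129 to 26.7 in the 17. HIST1H2AC, HIST1H2BC, HIST1H2BD, HIST1H2BJ, HIST1H2BK, HIST1H4H, HIST2H2BE and HIST1H2BN belong to the 14, and HIST1H1C to the 17.

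Counts were also read by position along the HIST1 cluster on chromosome 6. In hg19, the build of the files, the cluster spans chr6:25726291-27861669 and holds 55 members, 27 of them described. The HIST2 genes on chromosome 1 gave 7 of 15, the single HIST4 gene on chromosome 12 was described, and all 4 HIST3 genes on chromosome 1 were at 0. Between HIST1H2BD and HIST1H4H lie 16 members (chr6:26183958-26273622). The stretch was bounded by described genes after the counts were seen. That none of the 16 was described follows from this choice and is no result about position. Of the 16, 10 had no count in any library and the highest count of any in a library was 8. HIST1H2AD and HIST1H3D, both at 0, overlap each other, and what that did to their counts was not tested. HIST1H2BE, at the near end of the stretch, gave 46 of the 60 counts of the stretch over all libraries, and the other 15 genes gave 14. The genes on either side gave 13364 counts (HIST1H2BD) and 3125 counts (HIST1H4H).

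**Figure D1:**
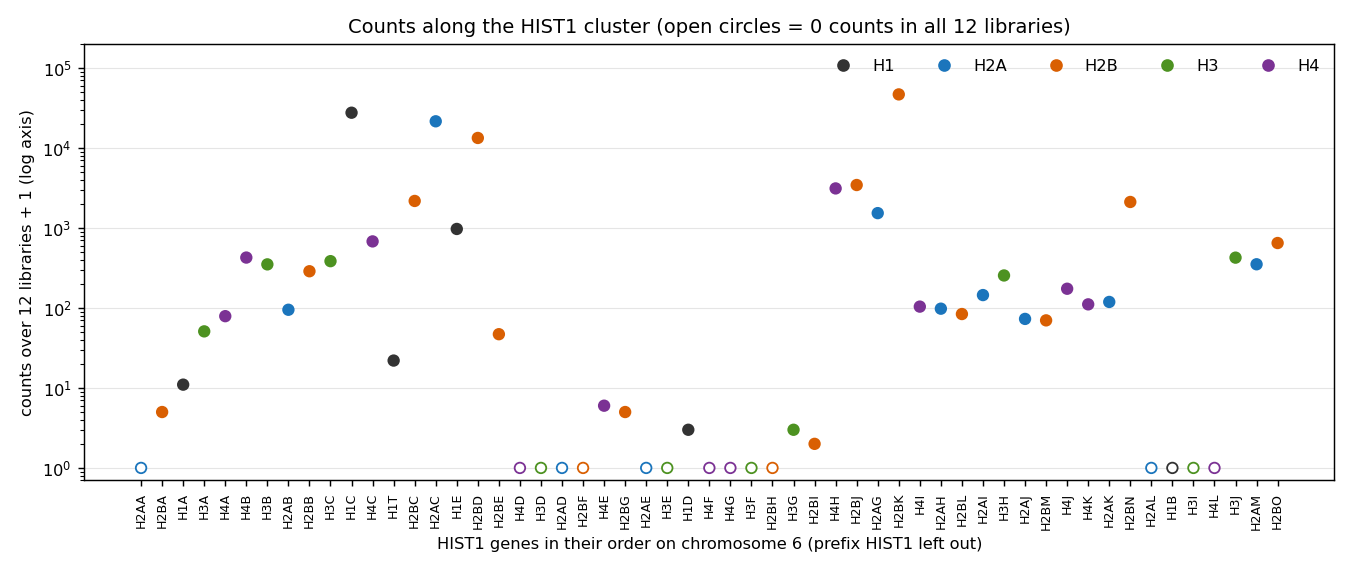
Counts summed over the 12 libraries plus 1 (log axis) for the 55 HIST1 genes in their order on chromosome 6, coloured by histone type, with open circles for genes at 0 in every library. The 16 genes between H2BD and H4H have at most 46 counts each, and H2BK, H1C, H2AC and H2BD stand highest.

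Alisertib alone was compared with untreated cells to ask what Aurora A inhibition does to these transcripts. In that comparison 8 of 35 members (22.9%) were called higher and none lower, at an adjusted p under 0.05 over all 20571 genes tested. Of all genes 3.55% were called higher and 3.19% lower. These shares were 11% and 13.5% without the 4 libraries that stand apart, with 9 members called higher, and 8.85% and 10.9% with a term for those libraries, with 10 members. Without untreated library 1 they were 6.54% and 5.80%, with 8 members, and when GC content and length entered as an offset 7.34% and 10.7%, with 9 members. The 8 were the H2A gene HIST1H2AC, the H4 gene HIST1H4H and 6 H2B genes. Their rises ran from 1.34-fold to 1.84-fold. The median log2 fold change was 0.21 over the 35 members and -0.01 over all genes. The members' median was 0.37 without untreated library 2 and 0.10 with the GC and length offset. The medians of H1, H2A, H2B, H3 and H4 genes were 0.24, 0.09, 0.46, -0.03 and 0.10. In bulk RNA, a change in the share of cells that express a gene and a change in RNA per cell cannot be told apart.

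HIST1H2AC encodes a core H2A. Its levels were 11.7, 11.2 and 11.0 CPM in untreated libraries 1 to 3 and 14.96, 15.7 and 13.9 with TGFβ. They were 17.9, 18.6 and 18.3 CPM with alisertib and 22.0, 23.5 and 23.7 with both. The 4 groups did not overlap and stood in that order. With alisertib alone it rose by 0.69 ± 0.07 (SE) on the log2 scale (edgeR quasi-likelihood adjusted p = 3.93e-05). Its divergent partner HIST1H2BC, an H2B gene, had 0.993, 1.24 and 1.08 CPM in untreated libraries, 1.36, 1.499 and 1.26 with TGFβ, 1.93, 2.01 and 2.15 with alisertib and 2.52, 2.29 and 2.14 with both. Its alisertib libraries lay above all untreated and TGFβ libraries and overlapped the combined ones. Alisertib raised it by 0.88 ± 0.13 on the log2 scale (adjusted p = 0.00102).

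The second printed pair is HIST1H2BJ and HIST1H2AG. HIST1H2BJ, an H2B gene, had 1.85, 2.02 and 1.82 CPM in untreated libraries, 2.38, 2.14 and 3.11 with TGFβ, 3.29, 3.85 and 3.18 with alisertib and 2.84, 2.76 and 3.12 with both. Its alisertib libraries were the highest of the 4 groups and overlapped none of the other 3. Alisertib raised it by 0.86 ± 0.14 on the log2 scale (adjusted p = 0.00193). HIST1H2AG, the H2A gene on the other side of that promoter, had 1.15, 1.02 and 0.850 CPM in untreated libraries, 1.38, 1.20 and 1.28 with TGFβ, 1.14, 1.32 and 1.13 with alisertib and 1.34, 1.30 and 1.35 with both. Its alisertib and untreated libraries overlapped, and its log2 fold change was 0.25 ± 0.14 (adjusted p = 0.385). Whether the 2 genes differ in response was not tested.

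The most abundant member, HIST1H2BK, had 28.8, 31.2 and 28.996 CPM in untreated libraries, 36.4, 36.7 and 32.1 with TGFβ, 41.6, 38.6 and 39.0 with alisertib and 39.5, 44.4 and 43.3 with both. All alisertib libraries lay above all untreated ones. It rose by 0.42 ± 0.07 with alisertib (adjusted p = 0.00167). HIST1H2BD, also an H2B gene, had 6.51, 8.47 and 7.76 CPM untreated, 9.88, 10.1 and 10.3 with TGFβ, 10.7, 11.3 and 11.0 with alisertib and 13.2, 12.9 and 13.4 with both. The 4 groups did not overlap, as for HIST1H2AC, and the alisertib difference was 0.53 ± 0.09 (adjusted p = 0.00192). Its locus overlaps the pseudogene row LARP1P1, and that of HIST1H2BK overlaps HIST1H4I.

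HIST1H4H encodes H4, the partner of H3 in the core of the nucleosome. It had 1.85, 1.74 and 1.74 CPM untreated, 2.66, 1.79 and 2.26 with TGFβ, 3.31, 2.58 and 3.08 with alisertib and 3.03, 2.52 and 2.83 with both. Its alisertib libraries lay above the untreated ones and overlapped those of the other 2 groups, and the difference was 0.75 ± 0.15 (adjusted p = 0.00705). HIST2H2BE, an H2B gene with a long model past the hairpin, had 1.10, 1.19 and 1.21 CPM untreated, 1.86, 2.10 and 1.82 with TGFβ, 1.74, 1.99 and 1.80 with alisertib and 2.24, 2.86 and 2.03 with both. Every treated library lay above every untreated one. The alisertib difference was 0.66 ± 0.14 (adjusted p = 0.0139), and it was not called without alisertib library 8 (adjusted p = 0.0663).

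HIST1H2BN had 1.33, 1.14 and 0.860 CPM untreated, 1.37, 1.42 and 1.45 with TGFβ, 1.56, 1.94 and 1.59 with alisertib and 2.50, 2.72 and 2.01 with both. The groups did not overlap. With alisertib the difference was 0.61 ± 0.17 (adjusted p = 0.0472), and this call stood in 8 of 19 other settings. Leaving out any 1 of libraries 2 to 11 ended it, with an adjusted p of up to 0.184.

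HIST1H1C, a linker histone gene, had 12.7, 18.7 and 18.8 CPM untreated, 20.6, 22.9 and 17.4 with TGFβ, 24.8, 22.1 and 21.8 with alisertib and 23.9, 28.5 and 27.4 with both. Libraries 1, 6, 9 and 10, which stand apart in GC, were each the lowest of their group. All alisertib libraries lay above all untreated ones, with a difference of 0.45 ± 0.14 that was not called (adjusted p = 0.0664). Without the 4 libraries that stand apart the difference was 0.33 and called (adjusted p = 0.000541). The other H1 gene, HIST1H1E, had 0.444, 0.882 and 0.967 CPM untreated, 1.06, 0.740 and 0.674 with TGFβ, 0.604, 0.744 and 1.01 with alisertib and 0.491, 0.894 and 0.670 with both, and all 4 groups overlapped.

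**Figure D2:**
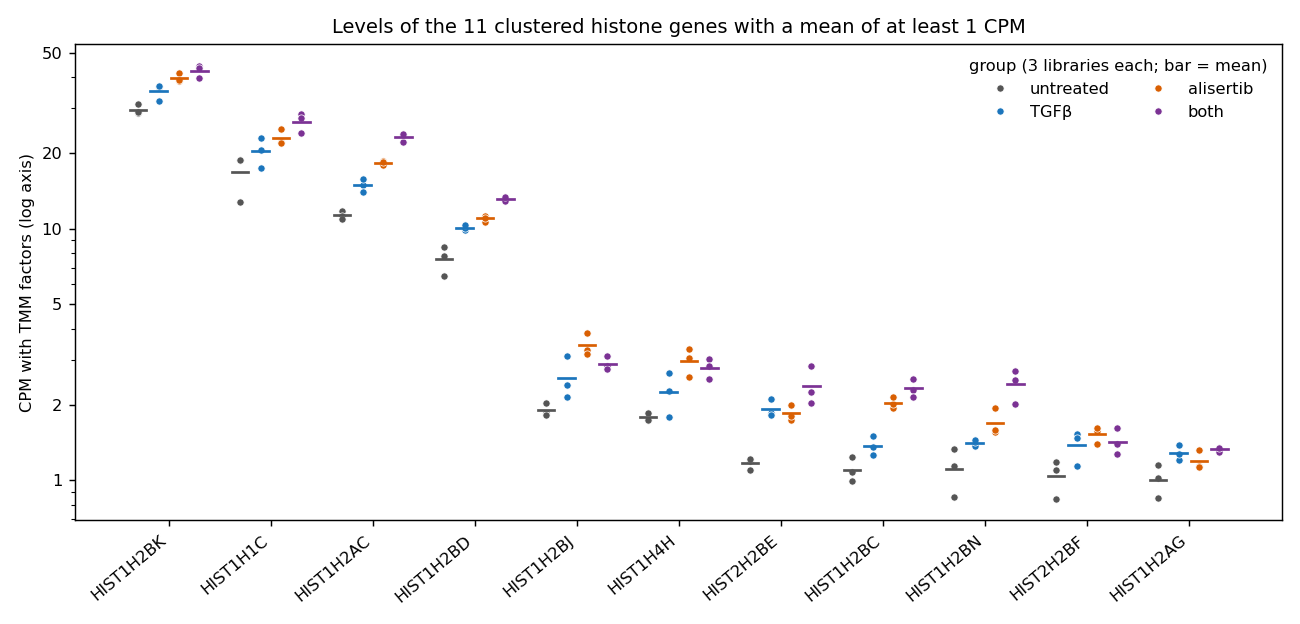
Levels in CPM (log axis) of the 11 members with a mean of at least 1 CPM, with 1 point per library, 3 libraries per group and a bar for the group mean. HIST1H2AC and HIST1H2BD step up from untreated to TGFβ, alisertib and both without overlap, while HIST1H2BJ is highest with alisertib alone.

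In the main fit no H3 gene was called in any comparison. With the GC and length offset HIST1H3B, HIST1H3C and HIST1H3J were called lower with both (edgeR quasi-likelihood adjusted p = 0.0464, 0.0176 and 0.0249). In that setting HIST1H3C was also lower with TGFβ (0.0357), and HIST1H3B and HIST1H3J for both against alisertib (0.0327 and 0.0361). Without untreated library 1 HIST1H3B was called lower with both (0.0416). The values below are those of the main fit. HIST1H3C had 0.518, 0.368 and 0.361 CPM untreated, 0.234, 0.281 and 0.324 with TGFβ, 0.238, 0.219 and 0.329 with alisertib and 0.270, 0.230 and 0.283 with both. Each treated group lay below the untreated one, and its log2 differences were -0.56 ± 0.26, -0.66 ± 0.26 and -0.66 ± 0.26 in that order (adjusted p = 0.106, 0.172 and 0.0595). HIST1H3J had 0.264, 0.378 and 0.537 CPM untreated, 0.366, 0.384 and 0.175 with TGFβ, 0.458, 0.267 and 0.379 with alisertib and 0.279, 0.230 and 0.309 with both, and its groups overlapped. HIST1H3B likewise overlapped, with 0.137, 0.436 and 0.313 CPM untreated, 0.384, 0.319 and 0.236 with TGFβ, 0.211, 0.372 and 0.339 with alisertib and 0.173, 0.240 and 0.155 with both. Among H4 genes, HIST1H4C had 0.391, 0.610 and 0.459 CPM untreated, 0.638, 0.525 and 0.516 with TGFβ, 0.659, 0.562 and 0.469 with alisertib and 0.626, 0.387 and 0.549 with both. HIST1H4B had 0.264, 0.145 and 0.518 CPM untreated, 0.478, 0.572 and 0.262 with TGFβ, 0.439, 0.315 and 0.240 with alisertib and 0.212, 0.295 and 0.275 with both. Neither H4 gene separated the groups. The H2A gene HIST1H2AM, whose locus overlaps HIST1H3J, had 0.243, 0.407 and 0.440 CPM untreated, 0.253, 0.337 and 0.184 with TGFβ, 0.357, 0.286 and 0.130 with alisertib and 0.212, 0.194 and 0.275 with both, and its groups overlapped as well.

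Summed by type, the H1, H2A, H2B and H4 means of each treated group were above the untreated mean, and the H3 means were below it. The H2B sum was 45.4 ± 2.80 CPM (SD, n = 3) in untreated libraries, 55.7 ± 2.03 with TGFβ, 63.2 ± 1.12 with alisertib and 69.4 ± 2.81 with both. The H2A sum was 13.0 ± 0.478, 16.9 ± 1.07, 20.1 ± 0.440 and 25.1 ± 0.900 CPM, mostly HIST1H2AC. The H3 sum was 1.26 ± 0.153, 1.12 ± 0.129, 1.15 ± 0.151 and 0.924 ± 0.108 CPM. The sum of all 35 was 80.2 ± 5.95, 98.7 ± 6.06, 112.6 ± 2.80 and 126.9 ± 6.07 CPM. These sums follow the few abundant members and were given no test.

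**Figure D3:**
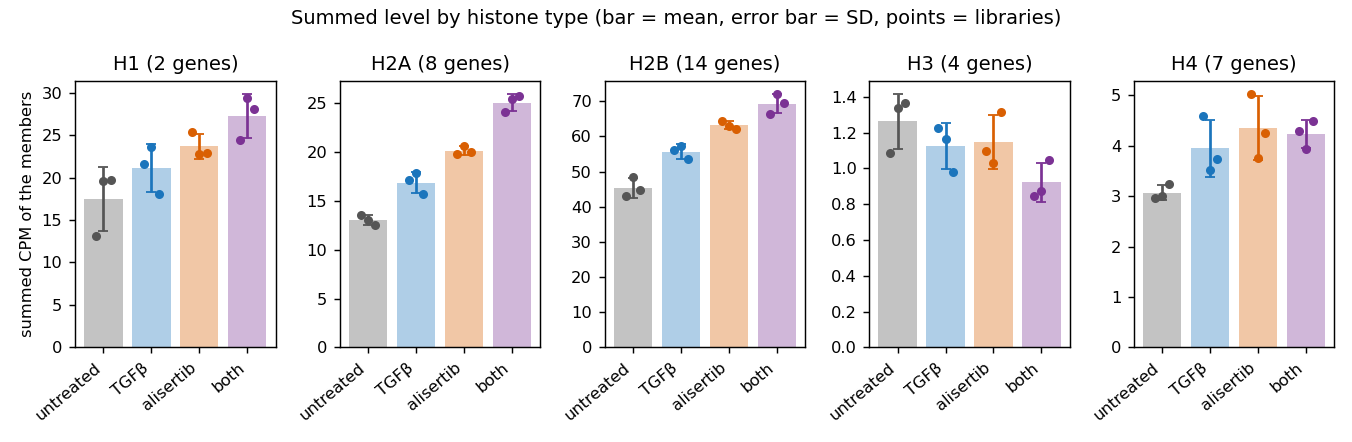
Summed CPM of the described members of each histone type by group, with bars for means, error bars for SD and points for the 3 libraries. The H2A and H2B sums go from untreated (13.0 and 45.4) to both (25.1 and 69.4), and H3 goes from 1.26 to 0.924.

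TGFβ alone was compared with untreated cells in the same way. Of the 35 members 7 (20%) were called higher and none lower, where 18.5% of all genes were called higher and 20.1% lower. The share called higher is near that of all genes and is no result about these members. The 7 were HIST1H2AC and 6 H2B genes, 2 of which are the pseudogenes HIST2H2BA and HIST2H2BB. The median log2 fold change was 0.31 in the members and -0.01 in all genes. HIST2H2BA had 0.211, 0.329 and 0.449 CPM untreated, 0.563, 0.712 and 0.735 with TGFβ, 0.540, 0.429 and 0.439 with alisertib and 0.771, 1.05 and 0.695 with both. The 6 libraries with TGFβ lay above the 6 without it, and the TGFβ difference was 1.01 ± 0.26 (adjusted p = 0.00710). Without the 4 libraries that stand apart it was not called (adjusted p = 0.0598). HIST2H2BB had 0.243, 0.233 and 0.322 CPM untreated, 0.441, 0.394 and 0.464 with TGFβ, 0.275, 0.238 and 0.349 with alisertib and 0.443, 0.525 and 0.489 with both. It too separated the libraries with TGFβ from those without, at 0.70 ± 0.23 (adjusted p = 0.0287), and its call stood in 11 of 19 other settings. Both loci overlap other rows of the table.

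HIST2H2BE rose by 0.72 ± 0.14 with TGFβ (adjusted p = 0.000992), HIST1H2BD by 0.41 ± 0.09 (0.00158), HIST1H2AC by 0.40 ± 0.07 (0.000219) and HIST1H2BJ by 0.42 ± 0.14 (0.0273). These 4 kept their direction in every other setting, and HIST1H2BJ lost its call in 5 of 19. HIST1H2BK rose by 0.24 ± 0.07 (adjusted p = 0.0109), and when GC content and length entered the fit as an offset its value was -0.09 (adjusted p = 0.508). The GC content of that gene comes from a model with less than its counted length. HIST1H2BC was at 0.31 ± 0.13 (adjusted p = 0.0755) and HIST1H4H at 0.33 ± 0.15 (0.0944), neither of them called.

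Of the comparisons with untreated cells, that of cells given both agents had the most calls. Of the 35 members 14 (40%) were called higher and none lower, where 19.4% of all genes were called higher and 20.3% lower. The median log2 fold change was 0.40 in the members and 0.00 in all genes, and the members' median was 0.21 with the GC and length offset. By type the called members were 1 of 2 H1, 3 of 8 H2A, 9 of 14 H2B, 0 of 4 H3 and 1 of 7 H4 genes. All 11 members with a mean of at least 1 CPM were among them and 3 of the 24 below that level. The H2B gene HIST1H2BN rose by 1.12 ± 0.17 on the log2 scale (adjusted p = 8.85e-05), HIST1H2BC by 1.07 ± 0.13 (1.04e-05), HIST1H2AC by 1.03 ± 0.07 (1.27e-08), HIST2H2BE by 1.02 ± 0.14 (4.15e-05) and HIST2H2BA by 1.34 ± 0.26 (0.000868). The levels in each library given above show no overlap between these 2 groups for any of the 5. HIST1H2BD rose by 0.79 ± 0.09 (3.79e-06), HIST1H1C by 0.67 ± 0.14 (0.00124), HIST1H4H by 0.65 ± 0.15 (0.00257) and HIST1H2BJ by 0.62 ± 0.14 (0.00270). HIST1H2BK rose by 0.52 ± 0.07 (2.38e-05), and with the GC and length offset the value was 0.16 (adjusted p = 0.240). HIST2H2BB was at 0.87 ± 0.23 (0.00814).

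The other 3 calls were near the threshold. HIST1H2AG was at 0.40 ± 0.14 (adjusted p = 0.0379, called in 12 of 19 other settings) and HIST2H2BF at 0.44 ± 0.17 (0.0470, called in 6 of 19). HIST2H2AA3, an H2A gene with a near-identical neighbouring copy, rested on 0, 2 and 3 counts in untreated libraries and 9, 13 and 5 in combined ones (adjusted p = 0.0497, called in 5 of 17). A fold change from so few counts is not given. HIST2H2AA3 reached the minimum of 10 counts in only 3 libraries, all of them with TGFβ. It is described only because of treated libraries, so its call is not independent of the choice of members. The counts of members called higher with both, in all, by type, by level and by counted length, include it. HIST1H2AK and HIST2H2BD, called in no comparison of the main fit, also reached 10 counts only in treated libraries. The median fold changes over the members include these genes and HIST2H2AA3, so they are not independent of the choice of members either.

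**Figure D4:**
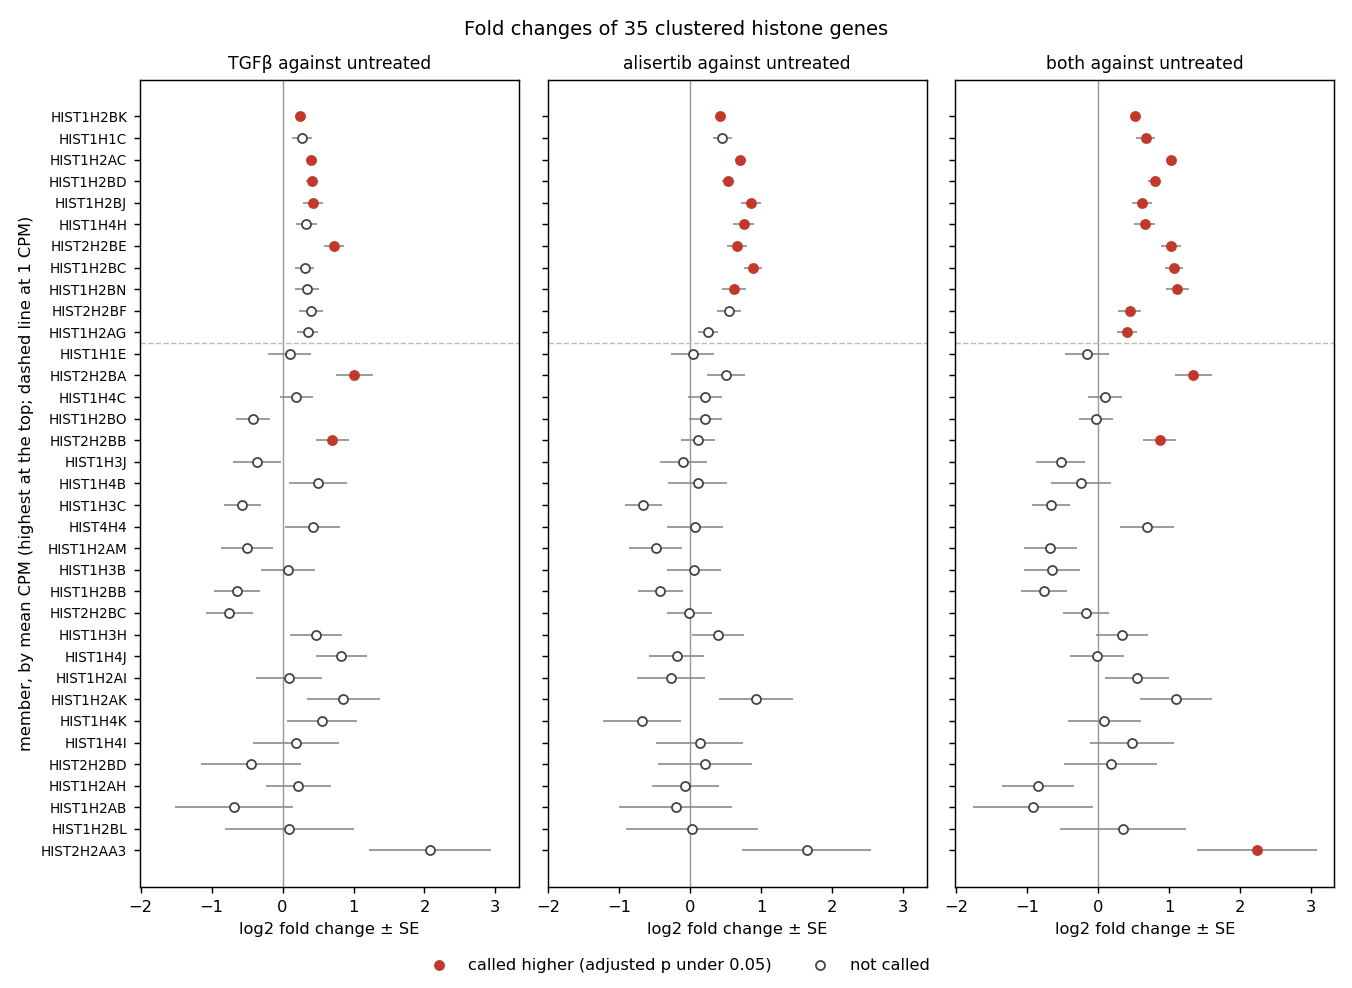
Log2 fold changes with SE of the 35 members against untreated cells, ordered by mean CPM, for TGFβ, alisertib and both, with filled circles for called members. Called members number 7, 8 and 14, all to the right of 0, and members under the dashed line at 1 CPM scatter on both sides of it.

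Calls were also counted by counted length. Among the 14 members whose counted length exceeds the coding sequence by 434 bases or more, 8 were called higher with alisertib, 5 with TGFβ and 11 with both. Among the 17 that exceed it by 141 or less these counts were 0, 0 and 1, the 1 being HIST1H1C. The median log2 fold change with alisertib was 0.58 in the 14 and 0.02 in the 17, and with both it was 0.67 and -0.03. Of all genes 3.55%, 18.5% and 19.4% were called higher with alisertib, TGFβ and both. Of the 11 members with a mean of at least 1 CPM only HIST1H1C is among the 17, and the others are among the 14. Of the 24 members under 1 CPM 0 were called higher with alisertib, 2 with TGFβ and 3 with both. Count and length thus can hardly be told apart here, and their parts were not tested.

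The effect of alisertib in cells that also had TGFβ was read from the combined against the TGFβ libraries, which share no library with the comparison of alisertib with untreated cells. Here 4 of 35 members (11.4%) were called higher and none lower, where 1.19% of all genes were called higher and 0.89% lower. The 4 were HIST1H2AC at 0.63 ± 0.06 (adjusted p = 0.000419), HIST1H2BC at 0.76 ± 0.13 (0.00594), HIST1H2BN at 0.77 ± 0.16 (0.0259) and HIST1H2BD at 0.38 ± 0.09 (0.0348). For each of them every combined library lay above every TGFβ library. The call of HIST1H2BD stood in 9 of 19 other settings and that of HIST1H2BN in 14. Those of HIST1H2AC and HIST1H2BC stood in all 19. All 4 are among the 8 called for alisertib without TGFβ, which is 100% of one list and 50% of the other. How far the calls of all genes recur between these comparisons was not counted. HIST1H2BK stood just outside at 0.27 ± 0.07 (adjusted p = 0.0521). The count was 2 without TGFβ library 4, 5 or 6 or combined library 11, and 6 without the 4 libraries that stand apart.

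Combined against alisertib libraries gave the effect of TGFβ in the presence of alisertib. There 6 members (17.1%) were called higher and none lower, where 19.4% of all genes were called higher and 19% lower, so the share higher is near that of all genes. The 6 were HIST2H2BA at 0.83 ± 0.25 (adjusted p = 0.0168), HIST2H2BB at 0.76 ± 0.23 (0.0173), HIST1H2BN at 0.51 ± 0.16 (0.0230), HIST2H2BE at 0.37 ± 0.14 (0.0475), HIST1H2AC at 0.33 ± 0.06 (0.000886) and HIST1H2BD at 0.26 ± 0.09 (0.0268). Of these 5 are also among the 7 called for TGFβ without alisertib, in a comparison that shares no library with this one. The same recurrence over all genes was not counted, so this overlap is no result about the members. The count was 2 without alisertib library 7, 8 or 9 and 1 without combined library 11. Over 19 other settings the call of HIST2H2BE stood in 6, that of HIST1H2BD in 13 and those of HIST1H2BN and HIST2H2BB in 14. That of HIST2H2BA stood in 16 and that of HIST1H2AC in all.

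Whether the response to alisertib depends on TGFβ was tested as the difference between the 2 alisertib effects. No member was called in edgeR or in DESeq2, and 2 of 35 had an unadjusted p under 0.05, where 0.117% of all genes were called higher and 0.165% lower. The 2 were HIST1H2BJ at -0.67 ± 0.19 (adjusted p = 0.299) and HIST2H2BF at -0.50 ± 0.23 (adjusted p = 0.871). The difference for HIST1H2AC was -0.06 ± 0.09 (adjusted p = 0.99991).

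Genes that work together with these histones were read from lists of textbook members. The counts below stand beside shares of all genes of 3.55% higher and 3.19% lower with alisertib. With TGFβ these shares were 18.5% and 20.1%, and with both 19.4% and 20.3%. Of 35 S phase genes, which drive DNA replication and nucleotide supply, none was called higher in any comparison. With alisertib 21 were called lower, with TGFβ 20 and with both 30, with median log2 fold changes of -0.31, -0.23 and -0.53. TYMS, thymidylate synthase, fell by 0.39 ± 0.05 with alisertib (adjusted p = 0.000193) and MCM6, a subunit of the replicative helicase, by 0.55 ± 0.07 (0.000573). CDC45, a helicase cofactor, fell by 0.43 ± 0.06 (0.000545). The locus of TYMS overlaps other rows.

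Of 24 histone chaperones, which carry new histones to DNA, 6 were called lower and none higher with alisertib, 8 lower and 1 higher with TGFβ, and 15 lower and 3 higher with both. CHAF1B and CHAF1A, subunits of the assembly factor CAF-1, fell by 0.39 ± 0.05 (adjusted p = 0.000240) and 0.34 ± 0.07 (0.0107) with alisertib. NASP, which holds soluble H3 and H4, went from 293 to 230 CPM and fell by 0.35 ± 0.06 (0.00485), and ASF1B fell by 0.35 ± 0.07 (0.00619). CHAF1B, CHAF1A and ASF1B overlap other rows, and NASP does not.

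Of 28 genes for histone gene transcription and for processing and decay of histone mRNA, 4 were called lower and 1 higher with alisertib. With TGFβ 6 were lower and 3 higher, and with both 11 and 4. The TGFβ counts are near or under the shares of all genes (20.1% lower and 18.5% higher) and are no result about the list. SLBP, the hairpin-binding protein, had means of 104.7 CPM untreated, 84.0 with TGFβ, 93.7 with alisertib and 74.2 with both. It fell by 0.32 ± 0.05 with TGFβ (adjusted p = 0.000188) and by 0.50 ± 0.05 with both (2.38e-06), and was at -0.16 ± 0.05 with alisertib (0.0867). NPAT, the activator at the histone locus body, was not called, at 0.05, -0.15 and -0.12 with TGFβ, alisertib and both. CASP8AP2, another locus body protein, fell by 0.48 ± 0.11 with alisertib (0.0192) and by 0.43 ± 0.11 with both (0.00645). CCNE2, a cyclin whose kinase acts on NPAT, fell by 0.35 ± 0.08 with alisertib (0.0129), ZCCHC11, a uridylyltransferase, fell by 0.23 ± 0.06 (0.0241), and ZNF473, a processing factor, rose by 0.31 ± 0.07 (0.0158). The loci of CASP8AP2, CCNE2, ZCCHC11 and ZNF473 overlap other rows, and that of SLBP does not.

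The list of variant and replication-independent histone genes holds genes outside the clusters, many of which give polyadenylated mRNA. Of 20 listed, 12 were tested. With alisertib 1 was called lower and none higher. With TGFβ 3 were higher and 1 lower, and with both 3 were higher and 4 lower. These few calls were not tested against the shares of all genes. The 1 with alisertib was H2AFV, which encodes an H2A.Z form and went from 267 to 235 CPM (-0.19 ± 0.05, adjusted p = 0.0248). H3F3B, which encodes the replacement histone H3.3, went from 268 to 341 CPM with TGFβ (0.35 ± 0.04, adjusted p = 1.85e-05) and was at 263 with alisertib (-0.03 ± 0.04, adjusted p = 0.779). The locus of H3F3B overlaps other rows.

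**Figure D5:**
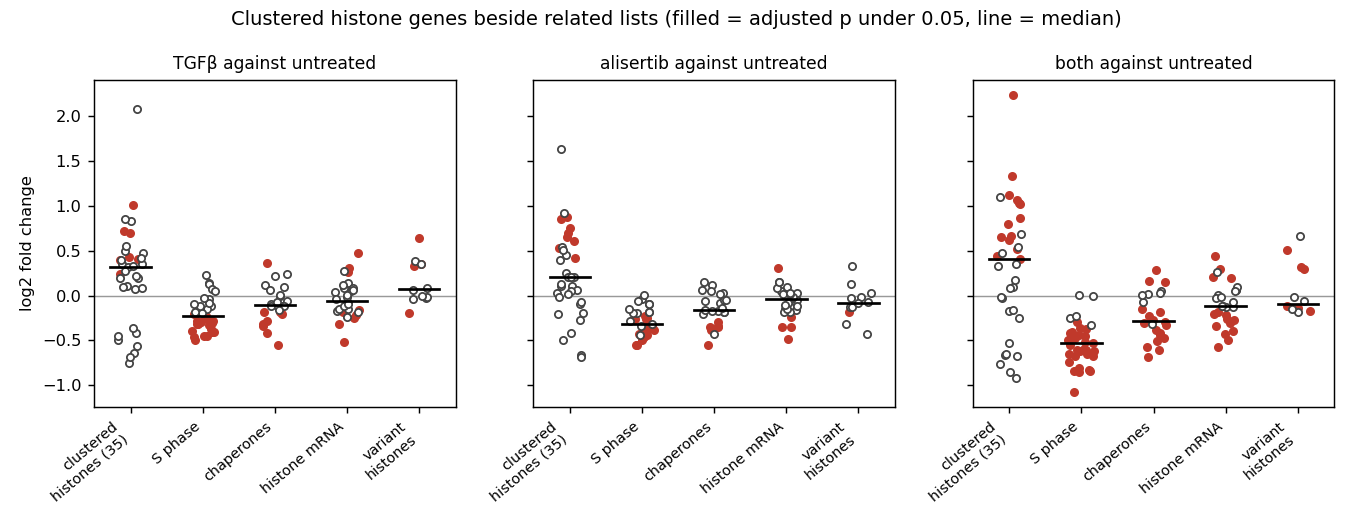
Log2 fold changes against untreated cells of the 35 clustered histone genes and of the tested S phase genes (35), chaperones (24), genes for histone transcription and mRNA processing (28) and variant histones (12), with filled circles for an adjusted p under 0.05 and lines for medians. Called clustered members lie above 0 in all 3 panels and called S phase genes lie below 0.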

How the data were processed

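RNA-seq of 12 MDA-MB-231 libraries in 4 groups of 3 was analysed from 1 table. The submitters' processing notes name the build hg19 and the tools TopHat, Subread, featureCounts and bcl2fastq, while versions, settings and annotation are not given in the sources used here. Its values, as deposited, are raw read counts for each gene and RPKM that the authors computed from the counts, with denominators 1.1 to 1.11 times the library totals. RPKM served only to order members by level per length.

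The deposited counts entered edgeR 4.0.16 (R 4.3.3) with filterByExpr (20571 genes), TMM factors, 1 quasi-likelihood fit over all 12 libraries (8 residual degrees of freedom) and Benjamini-Hochberg adjustment over all genes tested. A gene was called at an adjusted p under 0.05. SE follow from the F statistic of each fold change, and CPM use TMM factors. The fit was tested on simulated data. The groups came from the labels. Alternatives were DESeq2 1.42.0 (test and size factors), no filter, only the groups compared, an offset for GC content and length (mgcv 1.9.3, with a GC value for 34 of 35 members), a term for or removal of libraries 1, 6, 9 and 10, and leaving out each library. In the last, a group of 2 shares the spread of all groups.

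Members and lists were chosen with earlier results of these data known. Named with values in each library are the 3 members of each type with the highest mean CPM, and the called members with the 4 highest and 4 lowest changes of a comparison. Other members are named where called, or as neighbours of a call. Of each list, SLBP, NPAT and CASP8AP2 and up to 4 called genes are named. Some genes within these rules are not reported here. The HIST1 stretch between HIST1H2BD and HIST1H4H and HIST1H2BE within it were chosen after their values were seen. So were the members named for the interaction and those named for calls gained under other settings. Transcript models are from GENCODE release 29 (36 members matched by symbol only), promoters and current symbols from RefSeq GRCh38.p14. Protein sequences were not used here.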

Additional observations from a re-analysis of the deposited data

How the results depend on the processing

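No paired analysis was possible because the replicate numbers 1 to 12 run through the series and no 2 groups share one. The number of members called higher was 5 to 10 for TGFβ, 7 to 10 for alisertib and 11 to 14 for both against untreated cells under the 7 settings other than leaving out 1 library. Leaving out 1 library gave 6 to 7, 6 to 8 and 11 to 13. For both against TGFβ alone it gave 2 to 6 (main 4), and for both against alisertib alone 1 to 6 (main 6). Lower calls were 0 in the main fit. With the GC and length offset they were 3 for TGFβ (HIST1H2AM, HIST1H2BO and HIST1H3C), 5 for both (HIST1H2AM, HIST1H2BB, HIST1H3B, HIST1H3C and HIST1H3J) and 2 for both against alisertib (HIST1H3B and HIST1H3J), and without untreated library 1 there was 1 for both (HIST1H3B, range 0 to 1 over the libraries left out). The cause was not tested.

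HIST1H2BK with TGFβ turned from 0.24 to -0.092 with that offset. Among 644 values of single members under other settings it is the only 1 to turn. Of the others 83 kept their direction and lost the call, and 560 kept both. These values cover only members called in the main fit and picked by the naming rule, not uncalled ones. HIST2H2BF with both and HIST1H2BN with alisertib are not among them, and their calls stood in 6 and 8 of 19 other settings. HIST2H2BE with alisertib, HIST2H2BE with both and HIST2H2BB with both are not among them either. Their calls stood in 18, 19 and 19 of 19. Of 39 calls in the pairwise comparisons 22 stood in every setting and 17 were lost in at least 1, 15 of these with a main adjusted p over 0.01. Depth limits the 24 members under 1 CPM, and differences between near-identical copies cannot be settled from these counts.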
